A study of Mus musculus with 8 samples.

Results

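The placement of both K36M oncohistones, H3.3K36M and H3.1K36M, was compared over 245206 bins of 10 kb on mouse chromosomes 1 to 19 and X (build mm9), out of 253926 rows in the whole table. Bins were taken where the mean over the 4 HA libraries was at least 0.5 RPM (RPM being reads scaled to the library's total), which set aside 2387 bins of 10 kb. The bins just inside this limit (mean of 0.5 to 0.6 RPM, 405 bins) had a median H3.3K36M signal of 0.440 RPM and a median H3.1K36M signal of 0.699 RPM, and the bins just outside (0.4 to 0.5 RPM, 414 bins) had 0.337 and 0.603 RPM. All samples came from C3H10T1/2, a mesenchymal progenitor line derived from embryos of C3H mice, at passages 10 to 15. Each of 4 lines stably expressed a single FLAG-HA-tagged histone: H3.3K36M, H3.1K36M, wild type (WT) H3.3 or WT H3.1. What was measured is the DNA recovered by chromatin immunoprecipitation and sequencing with an HA antibody, so the signal follows the tagged histone and not the cells' own H3. The labels name no deletion of the cells' own H3 genes, and neither the promoter of the transgene nor whether a line is 1 clone is given in the sources used here.

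Histone H3.1 is placed mainly behind the replication fork by the chaperone CAF-1. H3.3 is also placed outside of replication, by HIRA at active genes and regulatory elements and by DAXX and ATRX at heterochromatin and telomeres. K36M replaces the lysine at H3 tail position 36 with methionine, and the mutant tail inhibits the H3K36 methyltransferases NSD2 and SETD2, which lowers H3K36 methylation on the other H3 of the cell as well. Both proteins carry the same K36M substitution on different H3 variants, and the comparison asks how far the variant sets where the oncohistone sits.

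Each line had 1 HA library, with 38783917 reads for H3.3K36M, 41705735 for H3.1K36M, 46749609 for H3.3WT and 35487141 for H3.1WT. The median bin held 116 reads of H3.3K36M and 151 of H3.1K36M. With 1 library a side no difference has a replicate check and none was tested. Intervals below are exact 95% intervals (Clopper-Pearson) on the reads and cover counting error only, and the ranking that chose some regions is not allowed for in their intervals. Input libraries were not used here, so a share of background reads that differed between the immunoprecipitations cannot be told apart from placement.

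Ratios are log2 of RPM plus 0.1, with the median of all bins subtracted ("centred"), so that 0 is the genome's median bin and not equal RPM. Before centring, the median ratio of H3.3K36M to H3.1K36M was 0.811 (log2 of -0.30), and the median bin held 3.004 RPM of H3.3K36M and 3.64 RPM of H3.1K36M. In WT lines the median ratio was 0.740 (log2 of -0.43). Bins are called apart when the centred ratio is at least 2-fold and alike when it is within 0.32 log2 units of 0, both rules of size. Folds of a named bin or region that carry an interval are ratios of RPM as deposited, without centring. They are measured from equal RPM and not from the genome's median bin.

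The oncohistones parted almost entirely in 1 direction. H3.3K36M was at least 2-fold higher in 31461 bins, which is 12.8% of all bins, and at least 2-fold lower in 804 bins, or 0.328%. At 4-fold the counts were 5724 bins (2.33%) and 1 bin (0.000408%). H3.3K36M and H3.1K36M were alike in 112554 bins, or 45.9%. Without centring, 20070 bins were higher and 8057 lower. Of the bins apart, 97.5% had H3.3K36M higher as centred and 71.4% did as deposited.

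**Figure D1:**
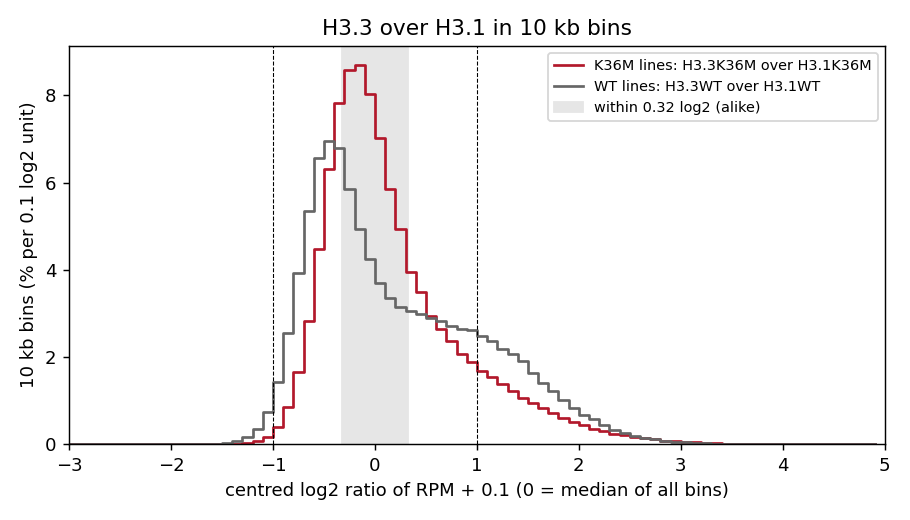
Share of 10 kb bins (vertical axis, percent per 0.1 log2 unit) by centred log2 ratio of H3.3 over H3.1 (horizontal axis), for K36M lines (red) and WT lines (grey), with dashed lines at 2-fold and shading where the ratio is within 0.32. Both curves have a long right side, and the K36M curve is the narrower, with an SD of 0.69 against 0.84.

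The spread of the ratio was far wider than read counts alone give. The SD over bins was 0.69 in K36M lines, against 0.19 from counting error, and 0.84 in WT lines, also against 0.19. The 10th and 90th percentiles were -0.51 and 1.17 in K36M lines and -0.68 and 1.45 in WT lines. All 31461 higher and all 804 lower bins had intervals that lay off the genome median. Of the lower bins, 98.6% had intervals wholly more than 0.32 log2 units from the genome median. The same reads chose these bins at 2-fold, which at this depth nearly fixes that outcome, so it is no separate check of the calls. Of the alike bins, 98.2% had intervals that held the genome median, but only 1.60% had intervals wholly within 0.32 log2 units of that median. A single bin at this depth therefore does not show that both histones were level there.

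In the bins where H3.3K36M was higher, its own signal was raised and that of H3.1K36M was slightly reduced. The median in these 31461 bins was 8.05 RPM in H3.3K36M, 2.68 times the library's median, and 3.302 RPM in H3.1K36M, 0.907 times its median. H3.1K36M lay below its own median in 63.1% of them, and in 86.3% of the bins at least 4-fold higher, where the medians were 12.1 RPM in H3.3K36M and 2.72 in H3.1K36M. Both libraries form the ratio that chose these bins, so a high H3.3K36M and a low H3.1K36M are favoured by the choice. The WT lines, which took no part in the choice of these bins, showed nearby levels, with 7.98 RPM in H3.3WT and 3.42 in H3.1WT. Of the bins 2-fold higher in K36M lines, 86.6% (27239) were also at least 2-fold higher in WT lines, where 20.1% of all bins were higher and 1.37% lower. Another 2.40% (756) were alike in WT lines and 12 bins were 2-fold lower there. The median centred WT ratio in these bins was 1.58, beside 1.45 in the K36M lines that chose them.

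Seen from the WT lines, fewer of the places that separate the variants were apart in K36M lines. Of the 49221 bins where H3.3WT exceeded H3.1WT at least 2-fold, H3.3K36M was 2-fold higher than H3.1K36M in 55.3%, alike in 10.5% and lower in 3 bins. With a WT ratio of at least 4-fold (7317 bins, 2.98% of all), 92.6% were 2-fold apart in K36M lines. The share of bins called higher was below the WT share on 19 of the 20 chromosomes; on chromosome 18 it was 14.4% in K36M lines and 13.5% in WT lines. Counting error was of the same size in both pairs of libraries, as given above.

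With all bins ordered by the WT ratio and split into 10 classes of equal size, the K36M ratio climbed through the classes but over a narrower range. Its median went from -0.32 in the class with the lowest WT ratio to 1.48 in the highest, while the WT medians that formed the classes went from -0.81 to 1.78. In the lowest class, 0.322% of bins were 2-fold higher and 1.23% lower in H3.3K36M. In class 8, 9.44% were higher, in class 9 33.2% and in class 10 77.8%. Alike bins were most frequent in class 6, at 64.0%, and least in class 10, at 3.74%. Medians within single chromosomes ran from -0.56 to -0.17 in class 1 and from 1.21 to 1.82 in class 10. Choosing classes by a measure stretches that measure, so the classes were also formed by the K36M ratio. Its medians then ran from -0.63 to 1.60, and those of the WT ratio from -0.48 to 1.69. In the upper classes the WT ratio was the wider in this order too, with 1.10 against 0.88 in class 9, and in the lowest class it was the narrower.

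**Figure D2:**
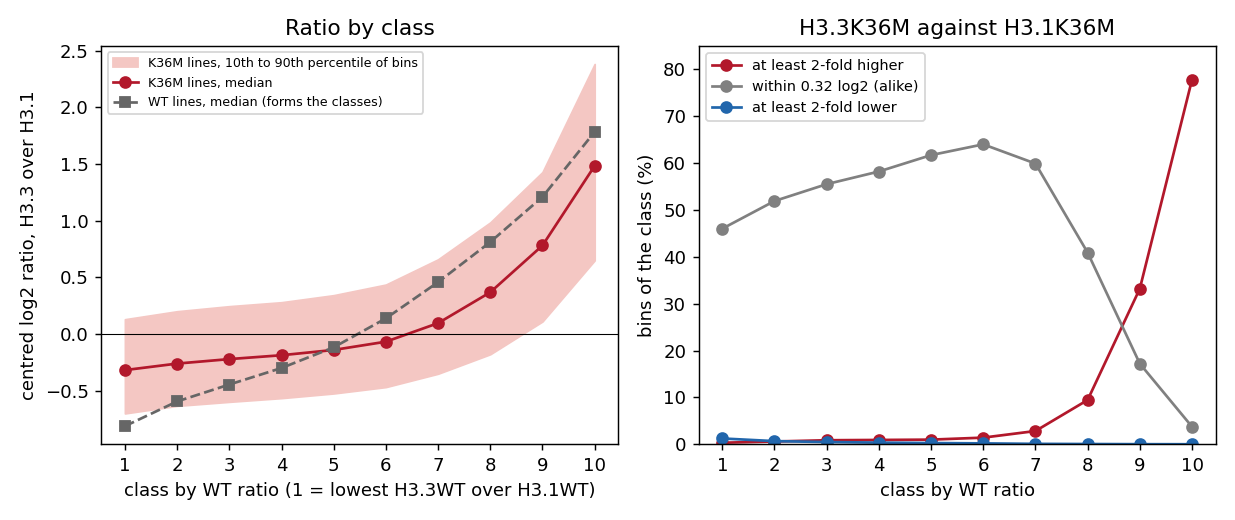
Left, centred log2 ratio of H3.3 over H3.1 (vertical axis) in 10 equal classes of bins by the WT ratio (horizontal axis), with the K36M median (red circles), its 10th to 90th percentile over bins (shading) and the WT median (grey squares). Right, percent of each class at least 2-fold higher, alike or at least 2-fold lower in H3.3K36M; the higher share is 0.322% in class 1 and 77.8% in class 10.

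The regions of at least 30 kb with the highest ratio carried several times more H3.3K36M than H3.1K36M, and in 5 of the 6 the WT variants were apart in the same way. The exception had the highest mean centred ratio of the 6. At chr3:45020001-45100000 (80 kb), H3.3K36M averaged 12.1 RPM per 10 kb bin and H3.1K36M 1.31 RPM, with a centred log2 ratio of 3.40. The ratio of RPM was 9.23 (8.36 to 10.2). A stretch ranked in another group and described below, chr10:102980001-103080000, had a ratio of RPM of 9.47 and a centred log2 ratio of 3.37. H3.3WT held 3.14 RPM and H3.1WT 2.95 RPM there, and the WT ratio of RPM was 1.06 (interval 0.972 to 1.16). Centred, the log2 WT ratio was 0.51, so H3.3WT was also higher there against the genome's median bin, beyond the alike range but short of 2-fold. Its bins ran from 7.69 to 15.2 RPM in H3.3K36M and from 0.771 to 1.57 RPM in H3.1K36M, so no bin of one histone reached the range of the other. In the 100 kb on each side both K36M histones averaged 2.29 RPM.

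The chromosome 13 regions among the 6 lay close to each other. At chr13:23820001-23860000, H3.3K36M held 13 RPM and H3.1K36M 1.52 RPM, an 8.53-fold difference (7.48 to 9.76). H3.3WT held 8.72 RPM and H3.1WT 1.58 RPM there, 5.50-fold apart (4.78 to 6.36). At chr13:23580001-23680000, the levels were 13.9 RPM in H3.3K36M, 1.81 in H3.1K36M, 8.78 in H3.3WT and 2.09 in H3.1WT. In both regions H3.3K36M exceeded H3.3WT, by 1.49 and 1.58 times, and the oncohistones were further apart than the WT variants. The ranking of both regions by the K36M ratio favours a high H3.3K36M and a K36M ratio above the WT one. Nearer the start of this chromosome, the single bin chr13:21900001-21910000 had the highest ratio of all bins, with 12.5 RPM in H3.3K36M and 0.313 in H3.1K36M, 39.9-fold apart (23.1 to 75.5). H3.3WT held 8.04 RPM and H3.1WT 0.708 RPM in this bin, which was named after its value was seen.

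The remaining 3 of these regions were on chromosomes 3 and 19. At chr19:5790001-5860000 the signal was 20.6 RPM in H3.3K36M, 2.89 in H3.1K36M, 17.2 in H3.3WT and 3.47 in H3.1WT. H3.3K36M was 7.15-fold above H3.1K36M (6.65 to 7.69), and the authors' H3.3K36M peaks covered 83.4% of the region. At chr19:60830001-60870000 H3.3K36M held 16.9 RPM and H3.1K36M 2.21 RPM, a 7.66-fold difference (6.86 to 8.56), and peaks covered 87.5%. At chr3:60400001-60450000 the levels were 13.6 and 1.78 RPM, 7.62-fold apart (6.84 to 8.52), with 11.5 RPM in H3.3WT and 2.21 in H3.1WT. In each of these 3 regions H3.1K36M lay below H3.1WT and H3.3K36M above H3.3WT, and both add to the K36M ratio by which the regions were ranked. Peak cover was lower in the other 4 of the 6: H3.3K36M peaks covered 39.5% of chr13:23820001-23860000, 23.2% of chr3:60400001-60450000, 4.40% of chr13:23580001-23680000 and none of chr3:45020001-45100000, the highest-ranked of the 6.

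The longest stretches with H3.3K36M higher were broad and of moderate ratio. They were chr6:28420001-28830000 (410 kb), chr14:87200001-87560000 (360 kb), chr15:63890001-64230000 (340 kb) and chr5:48370001-48680000 (310 kb). On chromosome 6 the mean was 8.36 RPM in H3.3K36M, 2.45 in H3.1K36M, 7.02 in H3.3WT and 2.30 in H3.1WT. The oncohistones were 3.41-fold apart there (3.297 to 3.536) and the WT variants 3.06-fold (2.94 to 3.18). On chromosome 14 the levels were 6.22, 2.40, 6.19 and 2.66 RPM in the same order of libraries, and the authors' H3.3K36M list had no peak in it. The chromosome 15 region was the richest, with 14.3 RPM in H3.3K36M and 14.0 in H3.3WT against 3.09 and 3.08 RPM in H3.1K36M and H3.1WT. On chromosome 5 the order of the H3.3 libraries was reversed, with 6.70 RPM in H3.3K36M and 7.02 in H3.3WT, and the H3.1 libraries held 2.06 and 2.19 RPM. The centred ratios in K36M and WT lines were 1.978 and 1.985 in the chromosome 6 region, both 1.64 in that of chromosome 14, 2.50 and 2.62 in that of chromosome 15, and 1.94 and 2.08 in that of chromosome 5.

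**Figure D3:**
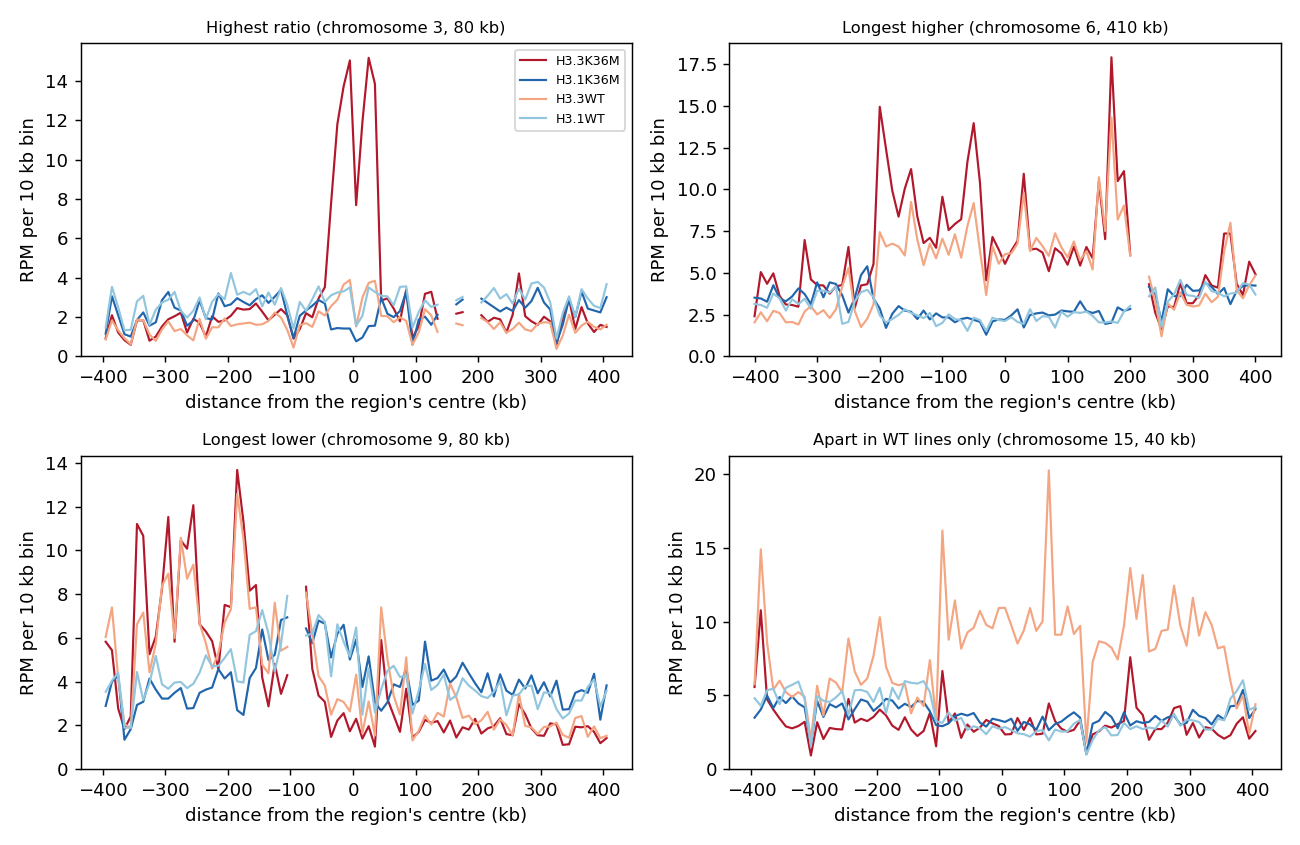
RPM per 10 kb bin (vertical axes) by distance from the centre of 4 regions (horizontal axes, kb) in the 4 HA libraries, with lines broken where no bin was used. The regions are the highest ratio, where H3.3K36M alone stands at 12.1 RPM, the longest higher region, the longest lower region, and the region with the highest ratio among those apart in WT lines only, where H3.3WT alone stands at 10.3 RPM.

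Over the genome, 31461 higher bins formed 14516 runs of touching bins with a median length of 10 kb. Of these bins, 26.8% stood alone, 35.1% lay in runs of at least 50 kb and 12.7% in the 293 runs of at least 100 kb. WT lines had fewer single bins (16.2%) and more bins in runs of at least 50 kb (50.7%), with a longest run of 680 kb. The ratios of neighbouring bins had a correlation of 0.663 in K36M lines and 0.816 in WT lines, and at 100 kb it was 0.315 and 0.537. These correlations run across bins of the same libraries, which are not independent, and are given as a description.

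At the edges of the 293 long runs H3.3 and H3.1 moved in opposite directions in all 4 libraries. The K36M libraries set these edges, so a step in them follows in part from the choice. In the last bin outside, the median level was 1.73 times the library's median in H3.3K36M and 1.18 times in H3.1K36M. In the first bin inside it was 2.73 times in H3.3K36M and 0.921 times in H3.1K36M. H3.3WT and H3.1WT, which did not set the edges, went from 2.05 to 2.85 times and from 1.17 to 0.946 times. Outside the runs H3.3WT stayed above H3.3K36M, at 1.78 against 1.41 times at a distance of 145 kb, while inside the levels were close, at 3.06 times in both at 45 kb. The bins of these runs were at least 2-fold higher in WT lines in 94.4% of cases.

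**Figure D4:**
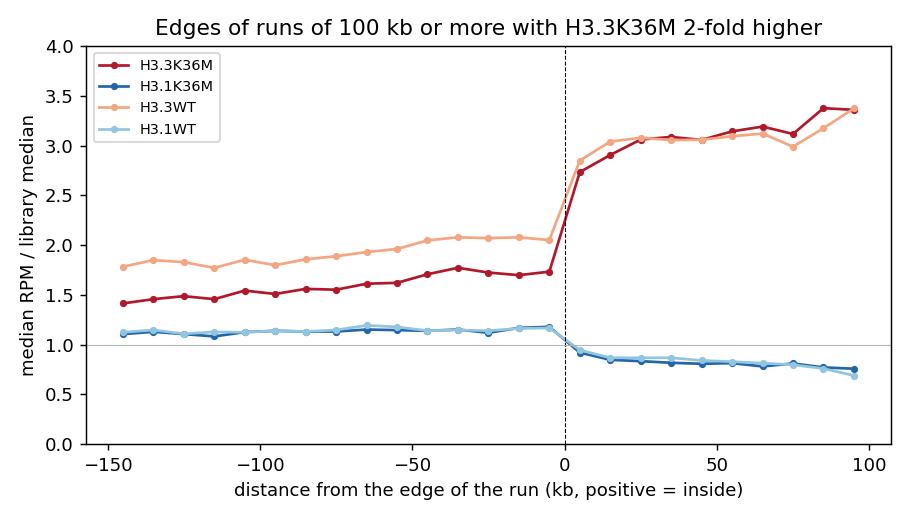
Median RPM over the library's median (vertical axis) by distance from the edges of the 293 runs of at least 100 kb with H3.3K36M 2-fold higher (horizontal axis, kb, positive inside the run), 1 line per library. Both H3.3 libraries step up at the edge, to 2.73 and 2.85 times, and both H3.1 libraries step down to below 1.

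The 804 bins where H3.3K36M was lower were scattered and poor in signal. Of these bins, 88.2% stood alone and 2 runs reached 50 kb. Their median was 1.22 RPM in H3.3K36M, 0.405 times the library's median, and 3.43 RPM in H3.1K36M, 0.944 times its median. H3.3K36M lay below its median in 98.0% of them and H3.1K36M above its own in 44.2%. Against the typical bin, they were low in H3.3K36M and not high in H3.1K36M. A low H3.3K36M is favoured by the choice of these bins. In the WT lines, which form no part of that ratio, H3.3WT stood at 0.473 and H3.1WT at 0.779 times the library's median. H3.1K36M exceeded H3.1WT in 84.5% of them, against 49.8% of all bins, although H3.1K36M is itself part of the ratio that chose them. WT lines leaned the same way with a smaller ratio: the median centred WT ratio was -0.58, 9.08% were 2-fold lower, against 1.37% of all bins, and 20.9% were alike, against 27.4%. Of the lower bins, 42.5% had a mean below 2 RPM over the 4 libraries, against 6.96% of all bins, and 9.20% lay next to a position with no bin in use, against 3.46%. The count of lower bins was 594 when a mean of at least 2 RPM was required, and 30 when 1 RPM in place of 0.1 RPM was added before the log.

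Chromosome 9 held 199 of the 804 lower bins, 24.8% of them on 4.78% of all bins. On this chromosome 1.70% of bins were lower, and the next highest share was 0.781%, on chromosome 14, while chromosome 19 had the lowest, 0.0177%, or 1 bin. The median centred K36M ratio of chromosome 9 was -0.20, the lowest of all, while its WT ratio was 0.10. In levels over each library's median, chromosome 9 stood at 0.897 in H3.3K36M and 1.07 in H3.3WT, and at 1.03 in H3.1K36M and 0.946 in H3.1WT. A whole chromosome that shifts moves many of its bins past a fixed fold, and with each chromosome's own median subtracted the genome had 623 lower bins. Without chromosome 9 the count was 605 when its bins were set aside and the others kept as centred. Chromosome copy number in the 4 lines was not measured here, and its part in these shifts was not tested.

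**Figure D5:**
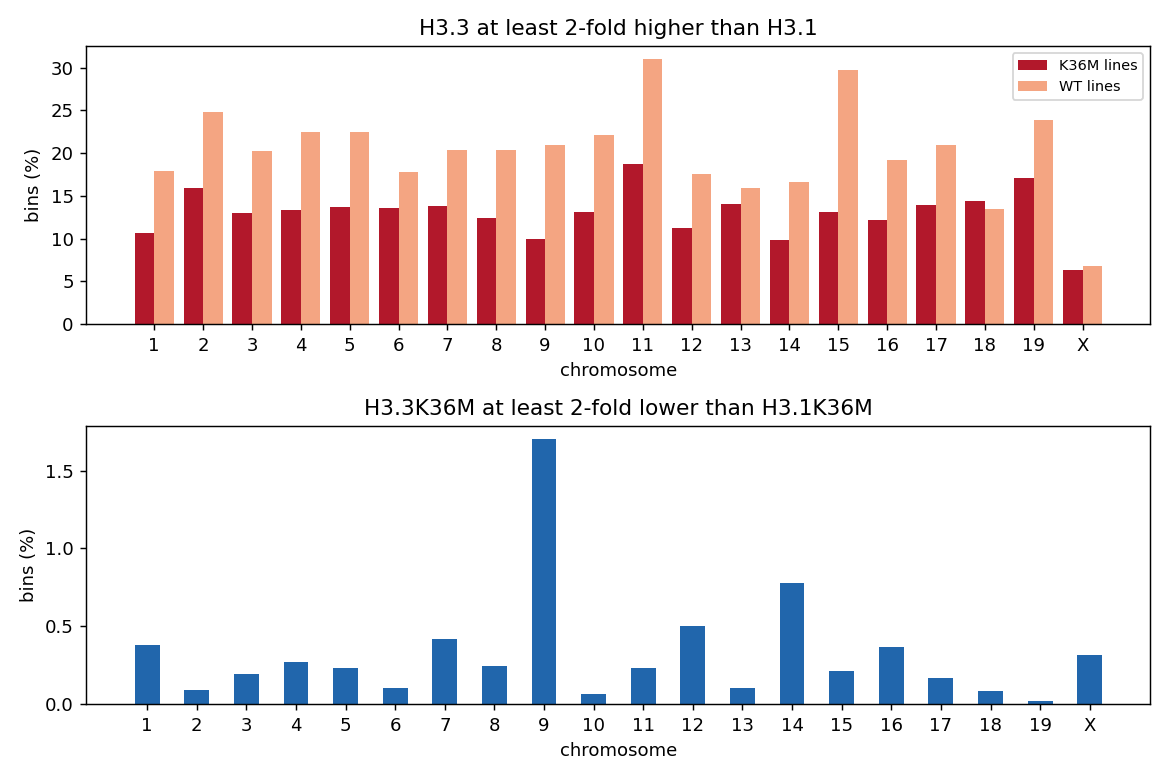
Percent of bins per chromosome, from 0, where H3.3 is at least 2-fold higher than H3.1 in K36M and WT lines (top) and where H3.3K36M is at least 2-fold lower than H3.1K36M (bottom). Chromosome 9 has the tallest lower bar at 1.70%, and chromosome 18 is the only one with a larger higher share in K36M lines, 14.4% against 13.5%.

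The higher bins were unevenly shared among chromosomes as well. Chromosome 11 had the largest share, 18.7%, followed by chromosome 19 with 17.1%. Chromosome X had the smallest, 6.30%, and the lowest autosome was chromosome 14 with 9.88%. Chromosome X also had the largest share of alike bins, 52.6%, and chromosome 9 the smallest, 33.3%. On chromosome 15 the share of higher bins was 13.1% in K36M lines and 29.7% in WT lines, the widest gap of any chromosome. Its levels over the library medians were 1.13 in H3.3K36M, 1.15 in H3.1K36M, 1.52 in H3.3WT and 1.12 in H3.1WT, so H3.3WT alone stood apart there.

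Only 3 regions of at least 30 kb with signal at or above the median were lower in H3.3K36M. At chr17:3010001-3040000 H3.1K36M held 7.88 RPM and H3.3K36M 2.33 RPM, 3.38-fold lower (2.95 to 3.88), and the WT variants held 6.20 and 1.86 RPM in H3.1WT and H3.3WT. At chr9:3000001-3060000 the averages were 938.0 RPM in H3.1K36M, 337.2 in H3.3K36M, 822.2 in H3.1WT and 372.1 in H3.3WT. Bins of that region ran from 3.18 to 1786 RPM in H3.1K36M, and so a few of its 6 bins carried the average. Signal there was high in all 4 libraries, and without input it cannot be told apart from background. Both regions lie at or beside the first mapped positions of their chromosomes, next to the centromere in the mouse. In the first 1 Mb of bins of every chromosome, 1.42% were lower and 16.0% higher, against 0.328% and 12.8% of all bins. The longest lower region, chr9:23410001-23490000, held 1.84 RPM in H3.3K36M, 5.10 in H3.1K36M, 2.75 in H3.3WT and 4.75 in H3.1WT. In RPM, H3.3K36M was 2.78-fold lower there (2.52 to 3.06) and H3.3WT 0.579 times H3.1WT (0.533 to 0.628). Centred, the log2 ratio was -1.13 in K36M lines and -0.32 in WT lines. With chromosome 9's own median subtracted, the K36M ratio became -0.93, short of 2-fold. Next in length came chr11:81760001-81780000, with 3.08 RPM in H3.3K36M, 8.89 in H3.1K36M, 2.86 in H3.3WT and 9.325 in H3.1WT, with centred ratios of -1.20 in K36M lines and -1.235 in WT lines. The single bin at least 4-fold lower was chr13:77570001-77580000, with 15.9 RPM in H3.3K36M, 82.0 in H3.1K36M, 18.9 in H3.3WT and 56.4 in H3.1WT.

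In the 112554 alike bins both oncohistones stood near the medians of their libraries. The median there was 2.82 RPM in H3.3K36M and 3.64 in H3.1K36M, 0.940 and 1.00 times the library medians. WT lines were alike in 36.9% of these bins, against 27.4% of all bins, and had H3.3WT 2-fold higher in 4.60% and lower in 1.26%. The longest alike run was chr16:37050001-37270000 (220 kb), with 3.103 RPM in H3.3K36M, 3.83 in H3.1K36M, 3.46 in H3.3WT and 3.98 in H3.1WT. Its K36M ratio of RPM, 0.811 (0.771 to 0.853), had an interval wholly inside the alike range around the genome's median ratio of 0.811. Each bin of the run was chosen to lie in that range in the same libraries, so the interval is no separate check. The next runs were chr13:17020001-17220000, chr18:28120001-28320000 and chr10:99150001-99340000. On chromosome 13 the levels were 2.73 RPM in H3.3K36M, 3.66 in H3.1K36M, 3.66 in H3.3WT and 3.83 in H3.1WT. On chromosome 18 the alike oncohistones, at 2.75 and 3.78 RPM, stood where H3.3WT was low, at 1.78 RPM against 4.25 RPM in H3.1WT. On chromosome 10 they stood at 2.43 and 3.22 RPM, with 3.53 RPM in H3.3WT and 3.59 in H3.1WT.

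A smaller group of bins was rich in both oncohistones. In 2852 bins (1.16% of all) both libraries were at least 2-fold above their own medians. These bins had a median H3.3K36M signal of 8.47 RPM and a median H3.1K36M signal of 8.24 RPM, and 50.3% were alike. Chosen by H3.1WT instead, which is no part of the ratio, 4523 bins (1.84% of all) were at least 2-fold above that library's median. They were alike in 45.8% of cases, higher in 10.6% and lower in 0.398%. These shares lie near those of all bins. Of the bins at least 2-fold above the H3.3WT median, 46.1% were higher and 17.6% alike. Bins rich in H3.1WT were thus about as often alike as the genome at large, and bins rich in H3.3WT less often so.

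The alike runs of at least 30 kb with the most signal were near the start of chromosome 11 and on chromosome 1. At chr11:3040001-3080000 H3.3K36M held 79.5 RPM, H3.1K36M 109.0 RPM, H3.3WT 79.4 RPM and H3.1WT 100 RPM. At chr11:3000001-3030000 the levels were 20.4, 23.0, 18.4 and 19.6 RPM in that order. At chr1:33880001-33910000 they were 12.2, 16.0, 11.3 and 16.96 RPM, and the authors' lists had 2 H3.3K36M peaks and 4 H3.1K36M peaks there. At chr1:33970001-34000000 the K36M levels were 12.99 and 13.7 RPM, while H3.3WT held 19.02 RPM and H3.1WT 13.3 RPM. Neither of the authors' lists had a peak in the chromosome 11 runs. Input libraries were not used, so signal this high in all 4 libraries cannot be told apart from background there.

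Some places differed between K36M and WT lines. In 756 bins (0.308% of all) H3.3K36M was 2-fold higher in K36M lines and the WT variants were alike. Their medians were 5.996 RPM in H3.3K36M and 2.45 in H3.3WT, and 2.96 RPM in H3.1K36M and 3.34 in H3.1WT. Only 6 runs of such bins reached 30 kb. The foremost, chr10:102980001-103080000 (100 kb), held 16.2 RPM in H3.3K36M, 1.71 in H3.1K36M, 2.66 in H3.3WT and 3.70 in H3.1WT. H3.3K36M was 9.47-fold above H3.1K36M there (8.76 to 10.2), and H3.3WT was 0.719 times H3.1WT (0.665 to 0.778). H3.1K36M was at 0.463 times the H3.1WT level, so the H3.1 oncohistone was low where the H3.3 oncohistone was high. The same holds at chr3:45020001-45100000, where H3.1K36M was at 0.445 times H3.1WT. Both regions were ranked by the K36M ratio, of which H3.1K36M is a part.

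The next such regions were smaller, and in them H3.1K36M differed less from H3.1WT. At chr13:101270001-101300000 the levels were 9.51 RPM in H3.3K36M, 3.96 in H3.1K36M, 2.75 in H3.3WT and 3.85 in H3.1WT. At chr10:72760001-72790000 they were 7.01, 3.09, 2.93 and 4.12 RPM, and at chr2:104880001-104910000 6.85, 3.45, 2.77 and 3.24 RPM. In the other direction 168 bins (0.0685% of all) were lower in K36M lines and alike in WT lines. Of their runs, 1 reached 30 kb, chr9:23450001-23490000, which is the later part of the longest lower region.

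In 5181 bins (2.11% of all) the WT variants were apart with H3.3WT higher while the oncohistones were alike. The median H3.3WT signal was 5.80 RPM and that of H3.3K36M 3.16 RPM, beside 3.23 RPM in H3.1WT and 3.66 in H3.1K36M. The H3.3 libraries differed more in these bins than the H3.1 libraries did. However, the rule that chose the bins uses all 4 libraries and favours H3.3WT above H3.3K36M. H3.3WT also spread more widely over all bins, with 10th and 90th percentiles of 1.36 and 7.89 RPM. Those of H3.1WT were 2.40 and 5.24 RPM. Of 217 runs of at least 30 kb, 2 of the 4 with the highest WT ratio were neighbours on chromosome 15. At chr15:40560001-40600000 H3.3WT held 10.3 RPM, H3.1WT 2.79 RPM, H3.3K36M 2.69 RPM and H3.1K36M 3.34 RPM. At chr15:40520001-40550000 the levels were 9.86, 2.78, 2.80 and 3.54 RPM in that order. H3.3WT kept a mean of 10.1 RPM in the 100 kb on each side of the first region, and H3.3K36M 3.14 RPM. At chr8:46860001-46890000 H3.3WT held 15.1 RPM and H3.3K36M 4.78 RPM, and H3.1WT and H3.1K36M held 4.45 and 5.17 RPM. At chr9:32950001-32980000 H3.3WT held 5.91 RPM against 1.48 RPM in H3.3K36M, 2.08 in H3.1WT and 1.90 in H3.1K36M.

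The reverse, with H3.3WT at least 2-fold lower and the oncohistones alike, was found in 1414 bins (0.577% of all). The median signal there was 1.20 RPM in H3.3WT, 2.51 in H3.3K36M, 3.71 in H3.1WT and 3.37 in H3.1K36M. All 4 of the regions named for it were on chromosomes 13 and 18. Chromosome 18 as a whole had a median centred ratio of 0.08 in K36M lines and -0.21 in WT lines. Those of chromosome 13 were 0.05 and -0.02. The part of such whole-chromosome shifts in these regions was not tested. At chr18:49450001-49490000 the levels were 1.20 RPM in H3.3WT, 3.09 in H3.3K36M, 3.88 in H3.1WT and 3.65 in H3.1K36M. At chr13:47680001-47710000 they were 1.16, 2.77, 3.63 and 3.28 RPM in that order, at chr13:69270001-69300000 0.724, 1.58, 2.37 and 2.33 RPM, and at chr18:48340001-48370000 1.43, 2.37, 4.40 and 3.58 RPM. In all 4 H3.3K36M stood above H3.3WT, which the rule that chose these regions favours.

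The authors' deposited peak lists, called in the lines of this comparison, are described without a test. H3.3K36M peaks come from the line whose library is part of the ratio. Their overlap with higher bins is therefore favoured and is no separate check of the calls. Of the 31461 higher bins, 26.8% overlapped an H3.3K36M peak, and 48.3% of those at least 4-fold higher did, against 4.25% of all bins. Of the alike bins 0.172% did, and none of the 804 lower bins. Of the 10413 bins with an H3.3K36M peak, 81.0% were higher and 1.86% alike. Of the 293 runs of at least 100 kb, 49 had no H3.3K36M peak in any bin. The 83 bins with an H3.1K36M peak were different: 40 were alike, 7 were higher and none was lower. The 7 were all among the 27 bins that held a peak from each list. The 56 bins with an H3.1K36M peak alone had medians of 8.73 RPM in H3.3K36M, 10.4 in H3.1K36M, 7.78 in H3.3WT and 10.0 in H3.1WT, so places called as H3.1K36M peaks were also rich in H3.3K36M.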

How the data were processed

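The samples were 8 libraries, an HA library and an input library for each of 4 lines; the 4 HA libraries were analysed. The genotype field of the labels set the groups, since the titles of the H3.3 HA samples start with an H3.1 name; the description names an HA antibody where the protocol text names another. The submitters' processing notes name Bowtie 1.0.0 and build mm9; the sources used here do not give the counting in bins, the treatment of duplicates or the peak caller. RPM per genomic bin and peak positions are the values the authors deposited. All RPM values (100%) were whole multiples of a fixed step in their column, with a tolerance of 0.01 of a read, and the reads were recovered from the steps, of 0.0259 RPM in H3.3K36M, 0.0241 in H3.1K36M, 0.0215 in H3.3WT and 0.0283 in H3.1WT.

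The 4029 rows wider than 10 kb on the chromosomes used were left out. A pseudocount of 0.1 RPM understates ratios of low bins. Touching bins at least 2-fold apart in 1 direction were merged. Named regions were those of at least 30 kb at either extreme of the mean ratio (6 each way) and the 4 longest in each direction (signal at or above the median), the 4 longest and 4 richest alike runs, and the 4 foremost of at least 30 kb apart in K36M lines only or in WT lines only; fewer where fewer existed. Members and rules were chosen with earlier results of these data known. No gene was placed on the bins, because the gene table given is of another build. The steps for ratios, merging and intervals were tested on simulated data. The versions were pandas 2.3.3, numpy 2.4.6 and scipy 1.17.1 under Python 3.11.15, and figures used matplotlib 3.10.9.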

Additional observations from a re-analysis of the deposited data

Results flagged for a closer look

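In 3 named regions the H3.3 over H3.1 ratio had opposite signs in K36M and WT lines; the difference was not tested, with 1 library per line. They are chr10:102980001-103080000, with a centred log2 ratio of 3.37 in K36M lines and -0.04 in WT lines, chr13:101270001-101300000, with 1.48 and -0.04, and chr10:72760001-72790000, with 1.44 and -0.05. These regions were named because the WT ratio lay near 0, and a WT ratio this close to 0 has no firm sign.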

How the results depend on the processing

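No paired analysis was possible because each group has 1 library. With no replicates, the spread of a median or SD over the 20 chromosomes served as a yardstick for its changes. Chromosomes of the same libraries are not replicates, so this spread does not give the error of a difference between lines. The number of lower bins was the least stable value. It was 804 as reported, 1237 when 0.01 RPM was added before the log, 30 when 1 RPM was added and 8057 without centring. The number of higher bins was 31461 as reported and 20070 without centring. In blocks of 100 kb, 2030 blocks were higher and 11 lower of 25485. The alike share, 45.9% as reported, was 44.6% and 57.7% with pseudocounts of 0.01 and 1 RPM, 44.8% with a filter at 2 RPM, 30.4% without centring, 46.6% with each chromosome's median subtracted, 45.2% on autosomes, 51.6% in 100 kb blocks and, added after seeing the data, 46.2% without chromosome 9. The SD of the ratio was 0.56 with a pseudocount of 1 RPM and 0.53 in 100 kb blocks. The median WT ratio in higher bins was 1.41, 1.32 and 1.29, and in lower bins -0.76, -0.96 and -0.79, with a pseudocount of 1 RPM, without centring and in 100 kb blocks. All 14 regions named as apart kept their direction under the 3 alternatives run on them, and 1, the longest lower region, missed 2-fold under 2 of them, at -0.86 with a pseudocount of 1 RPM and -0.93 with each chromosome's median subtracted. Depth limits single alike bins, whose intervals mostly reach past the alike range.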

Other observations

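The rows outside chromosomes 1 to 19 and X held little signal. Over 212 rows of chromosome Y the summed signal was 19.1 RPM in H3.3K36M, 28.5 in H3.1K36M, 17.4 in H3.3WT and 29.3 in H3.1WT, with centred log2 ratios of -0.28 in K36M lines and -0.32 in WT lines. The 2092 rows of unplaced sequence were listed at 0 in all 4 libraries.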
